A study of Mus musculus with 4 samples.

Results

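The genes described here are Six2, Six4, Six5, Eya1, Eya2, Eya3, Eya4 and Dach1, members of a transcription network first known from the making of eye, ear, kidney and muscle. They were taken by name from the deposited read table, in which all 8 were found among 29595 gene rows, and all 8 were among the 16128 rows tested. The libraries came from the right ventricle of adult mice on a mixed C57BL/6 background, 2 from Ezh2-deficient mutants (mutant 1 and mutant 3) and 2 from wild-type mice (wild type 1 and wild type 2). The labels give the mutants only as deficient in Ezh2, the methyltransferase of Polycomb repressive complex 2 (PRC2). The allele, the driver of any deletion, the cells in which the gene was lost and the age in weeks are not given there. Libraries were built from polyadenylated RNA and treated with a duplex-specific nuclease, which lowers the share of abundant transcripts.

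Six2, Six4 and Six5 are sine oculis homeobox proteins, which bind DNA through a homeodomain and have little activating power of their own. Eya proteins do not bind DNA themselves; they join sine oculis proteins as co-activators and also carry a phosphatase activity. Dach1 is a nuclear corepressor related to Ski that can work with or against the sine oculis and Eya pair. In developing muscle, sine oculis and Eya proteins act on enhancers and promoters that hold a MEF3 site, and PRC2 is known for holding developmental regulators of this kind silent in tissues that do not need them.

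The MEF3 site, TCAGGTTTC, was searched on both strands in windows of 300 bases, from 250 bases before to 50 bases after the RefSeq start sites (GRCm38.p6). Of the 8 genes 6 had a window, with 8 windows in all. A site lay in 1 of these windows, a window of Six4. Among the genes of the lists described further on, it lay in the window of Myog, which encodes the muscle regulator myogenin. Both are shown because no other window of those lists holds the sequence known to bind sine oculis proteins; the site is in capitals and is read as its reverse complement in Six4.
Six4: tggcctggggGAAACCTGAtcggccagat
Myog: agaggggggcTCAGGTTTCtgtggcgttg
The site begins 99 bases before the Six4 start that sets this window and 84 bases before the start of Myog. The other Six4 window, set by another start site, did not hold it. Over all 32851 windows, 0.429% hold it. The match is a description of the letters and does not show binding. Six4 did not pass the test between the groups and Myog had too few reads to be tested.

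Windows of these genes held more CpG than the median window, the dinucleotide that crowds the promoters on which Polycomb complexes are found. The median window over all genes held 7 CpG, and the 8 windows of these genes held a median of 21. Among the other lists described below, medians were higher for corepressors (30), growth genes (29), PRC2 (27) and partners of the Eya phosphatase (24.5). They were lower for arterial genes (18.5), upstream genes of the organ network (18) and further relatives of the network (16.5). Myogenic factors (9) and fast-fibre and glycolytic muscle genes (5) had the lowest. Eya1 and Eya2 have no window in the table used. The windows of Eya4 and Dach1 are printed because the genes read in opposite directions between the groups and because their windows lie near the upper end and at the lower end of the range, with CpG in capitals. Eya4 lies at chr10:23349894-23350193 on the minus strand and Dach1 at chr14:98169716-98170015 on the minus strand, both on GRCm38.p6.
Eya4: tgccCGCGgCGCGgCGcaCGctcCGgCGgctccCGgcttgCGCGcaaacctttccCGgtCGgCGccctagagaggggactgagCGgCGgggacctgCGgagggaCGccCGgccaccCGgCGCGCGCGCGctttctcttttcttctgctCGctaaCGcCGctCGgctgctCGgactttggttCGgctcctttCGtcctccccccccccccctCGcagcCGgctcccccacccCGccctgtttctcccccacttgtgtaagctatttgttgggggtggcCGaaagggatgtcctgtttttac
Dach1: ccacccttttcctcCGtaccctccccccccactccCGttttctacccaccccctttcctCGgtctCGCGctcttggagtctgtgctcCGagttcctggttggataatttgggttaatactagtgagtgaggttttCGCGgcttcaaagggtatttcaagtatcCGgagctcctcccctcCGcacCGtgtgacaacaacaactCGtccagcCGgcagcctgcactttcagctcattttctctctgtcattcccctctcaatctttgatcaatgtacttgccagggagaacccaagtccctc
The printed Eya4 window held 36 CpG, more than 93.8% of all windows hold, and a second Eya4 window, which overlaps it, held 28, more than 85.8%. That of Dach1 held 13, more than 62.1%. Six2, whose groups overlapped, held 37, and the windows of Six4, whose groups also overlapped, held 16 and 15. Eya3 and Six5, both lower in the mutants, held 25 and 17. The printed pair was chosen after its values were seen, and a link of CpG with direction was not tested.

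The read table held 18177642 to 23853394 reads per library. Reads of Y-linked rows followed genotype: Ddx3y had 754 and 659 reads in the mutants, against 2 and 2 in the wild types, so genotype and sex cannot be told apart in any value given here. Pearson's r of log2 CPM across the tested rows, which are not independent replicates, was 0.987 between the mutants and 0.957 between the wild types. Across the groups it was 0.957 for each mutant with wild type 1, and 0.964 and 0.966 for mutants 1 and 3 with wild type 2, so wild type 2 was no closer to wild type 1 than to the mutants. Ezh2 itself had 73 and 70 reads in the mutants, against 77 and 67 reads in the wild types (a difference of 0.03 ± 0.30 SE on the log2 scale, adjusted p = 0.979 by edgeR's quasi-likelihood test). This row does not check the labels, since a transcript left after a partial deletion would be counted in it. Levels below are counts per 1000000 reads (CPM) after TMM scaling, and an adjusted p under 0.05 by the same test over all 16128 rows was the threshold for a call. Nothing in the labels ties the hearts to litters or days, and p-values measure only the spread between these 4 samples.

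Across the network, 3 of the 4 Eya genes had more reads in both mutants than in both wild types, while Six5, Eya3 and Dach1 had fewer CPM in both mutants, and Six2 and Six4 overlapped between the groups. In bulk tissue, fewer cells of a type and less RNA per cell cannot be told apart. None of the 8 genes passed an adjusted p of 0.05 by edgeR, by DESeq2 or by limma-voom. Of all tested rows, 0.13% passed by edgeR (0.105% higher and 0.0248% lower in the mutants) and 1.41% by DESeq2 (1.09% higher and 0.322% lower). By unadjusted p under 0.05, 3 of the 8 were higher in the mutants, Eya1, Eya2 and Eya4, and none was lower, against 6.49% and 4.38% of all rows. Eya2 and Eya4 entered the test only through the mutants, so the filter fixed their direction. The shares of all rows are therefore no fair measure for these genes, here or in the overlap counts that follow. Groups did not overlap for 6 of the 8, while 44.8% of all tested rows did not overlap either (22.3% higher and 22.4% lower in the mutants). Among the 14822 rows with at least 10 reads in every library, 21.4% lay higher and 23.2% lower in both mutants. The median log2 fold change of the 8 was 0.33, against 0.0 over all tested rows. This median includes Eya2 and Eya4, whose direction the filter fixed, so it is no fair measure of a shift either.

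**Figure D1:**
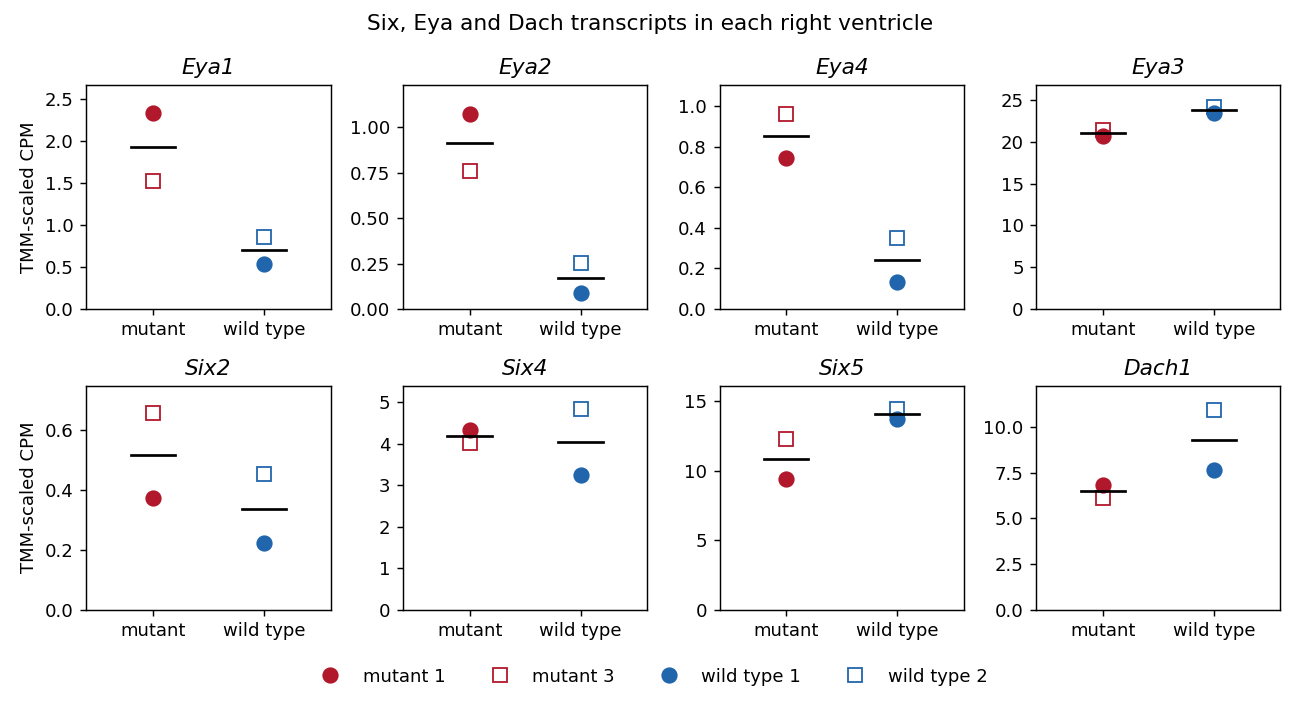
TMM-scaled CPM (vertical axes, each from 0) of the 8 genes in the mutants (left, red) and the wild types (right, blue); each symbol is 1 library and each bar the mean of 2. Eya1, Eya2 and Eya4 lie higher in both mutants, Eya3, Six5 and Dach1 lie lower in both, and Six2 and Six4 overlap.

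Eya1, the co-activator needed for kidney, ear and muscle formation in mice (chromosome 1, 14159039 to 14300280 on mm9, minus strand), had 50 and 30 reads in mutants 1 and 3, against 12 and 17 reads in wild types 1 and 2. Scaled, these were 2.33 and 1.52 CPM in the mutants, against 0.534 and 0.855 CPM in the wild types. Both mutants stood above both wild types, with mutant 1 the highest. Eya1 averaged 1.93 ± 0.574 CPM in the mutants and 0.695 ± 0.227 CPM in the wild types (SD, n = 2 each). The difference of 1.47 ± 0.50 (SE) on the log2 scale gave an adjusted p of 0.357 by edgeR's quasi-likelihood test, with alternatives from 0.0253 to 1.0, and 0.570 by DESeq2. Summed over the hearts, 80 mutant reads against 29 wild-type reads gave a scaled ratio of 2.84, with a 95% interval of 1.84 to 4.50 that covers counting error only. Among rows outside X and Y and without clone-type names, Eya2 had the profile closest to that of Eya1 over the 4 libraries (root mean square distance 0.0693 on the log2 scale with a pseudocount of 0.5 CPM, among 11650 rows), followed by Mpa2l. With a pseudocount of 0.1 CPM, chosen after seeing the data, Eya2 ranked 148 and Csf3r and Neil2 were the nearest, so the first rank depends on how low counts are damped.

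Eya2, another Eya co-activator of muscle and neural development (chromosome 2, 165420528 to 165597131, plus strand), was barely read in the wild types. Its reads numbered 23 and 15 in the mutants, against 2 and 5 in the wild types. The groups did not overlap, at 1.07 and 0.761 CPM in the mutants and 0.0891 and 0.252 CPM in the wild types. It averaged 0.917 ± 0.221 CPM in the mutants and 0.170 ± 0.115 CPM in the wild types (SD, n = 2 each). The fold change was the highest of the 8 on the log2 scale, 2.42 ± 0.76 (SE), with an adjusted p of 0.326 by edgeR, between 0.0253 and 1.0 over the alternatives. The ratio of summed reads was 5.59 (95% counting interval 2.46 to 14.8).

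Eya4 encodes a co-activator whose human gene is mutated in families with dilated cardiomyopathy and hearing loss (mouse gene on chromosome 10, 22823974 to 23070592, minus strand). It had 16 and 19 reads in the mutants, against 3 and 7 reads in the wild types. These were 0.747 and 0.964 CPM in the mutants and 0.134 and 0.352 CPM in the wild types, again without overlap and here with mutant 3 the higher mutant. Eya4 averaged 0.855 ± 0.153 CPM in the mutants and 0.243 ± 0.155 CPM in the wild types (SD, n = 2 each). The log2 fold change was 1.81 ± 0.72 (SE) with an adjusted p of 0.426 by edgeR, 0.0499 to 1.0 over the alternatives, and the ratio of summed reads was 3.60 (95% counting interval 1.75 to 8.15). Eya2 and Eya4 entered the test only through the mutants, since both wild types were under 10 reads and both mutants at 10 or more. This was so for 176 tested rows, 1.09% of them, and such a row had to read higher in the mutants.

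Eya3, the Eya gene with the broadest expression, was by far the most abundant Eya gene here per length and differed least between the groups of the Eya genes (chromosome 4, 132194961 to 132280678, plus strand). It had 443 and 423 reads in the mutants, against 526 and 481 reads in the wild types. After scaling it stood at 20.7 and 21.5 CPM in the mutants and 23.4 and 24.2 CPM in the wild types, a narrow gap without overlap. The means were 21.1 ± 0.550 CPM in the mutants and 23.8 ± 0.550 CPM in the wild types (SD, n = 2 each), with a log2 fold change of -0.18 ± 0.21 (SE) and an adjusted p of 0.797 by edgeR. Scaling by library totals alone shifted the median of all rows by -0.28 and gave Eya3 -0.46, without a call.

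The split of reads within the Eya family needs no scaling between libraries. Eya1, Eya2 and Eya4 together held 89 of 532 Eya reads in mutant 1, or 16.7% (95% Clopper-Pearson interval 13.7 to 20.2), and 64 of 487 in mutant 3, or 13.1% (10.3 to 16.5). In wild type 1 they held 17 of 543, or 3.13% (1.83 to 4.97), and in wild type 2 they held 29 of 510, or 5.69% (3.84 to 8.07). The 3 genes were grouped after their values were seen, because each was higher in both mutants, so the direction of these shares follows from the choice and is given only as a description. The intervals cover counting error only, since reads are not independent molecules. Summed markers of skeletal fibres and of atrial muscle, given at the end, were also higher in both mutants. The atrial sum was mostly Nppa. Of the 5 tested atrial markers, 4 lay higher in both mutants, and Gja5 lay lower in both (5.32 and 5.17 CPM, against 6.37 and 6.09 CPM in the wild types). The skeletal sum was mostly Acta1 and Ckm, which the heart also expresses. Its other tested genes, Tnnt3, Tnni2, Mylpf, Atp2a1 and Pvalb, stood far above the other libraries in mutant 1 alone. The median log2 fold change of the tested skeletal markers was 4.07, and 0.24 without mutant 1. Tnnt3 entered the test only through the mutants, so the filter fixed its direction. The part of skeletal and atrial markers in the Eya shares was not tested. With 2 hearts against 2, relabelling allows only 3 splits, so no exact permutation test could reach p = 0.05.

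**Figure D2:**
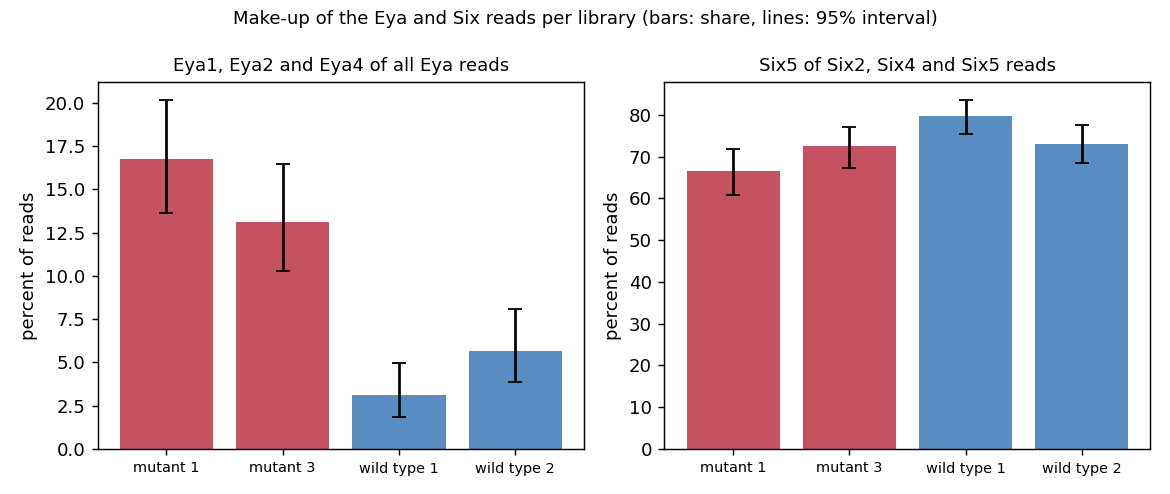
Percent of Eya reads that fell on Eya1, Eya2 and Eya4 (left panel) and percent of Six2, Six4 and Six5 reads that fell on Six5 (right panel), for mutants 1 and 3 (red) and wild types 1 and 2 (blue), with 95% Clopper-Pearson intervals as lines. The Eya shares were 16.7% and 13.1% in the mutants, against 3.13% and 5.69% in the wild types, while the Six5 shares of mutant 3 and wild type 2 were nearly equal.

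Among the sine oculis genes, Six5 was the most abundant per length. It lies next to the myotonic dystrophy kinase gene Dmpk and is known from that locus (chromosome 7, 19679893 to 19683694, plus strand). It had 201 and 242 reads in the mutants, against 307 and 286 reads in the wild types, or 9.38 and 12.3 CPM in the mutants and 13.7 and 14.4 CPM in the wild types. Both mutants were below both wild types, mutant 1 by more. Six5 averaged 10.8 ± 2.05 CPM in the mutants and 14.0 ± 0.508 CPM in the wild types (SD, n = 2 each), with a log2 fold change of -0.37 ± 0.24 (SE) and an adjusted p of 0.617 by edgeR. Without mutant 1 the log2 fold change was -0.16, and without mutant 3 it was -0.54. Dmpk, which ends 1441 bases before Six5, had 3888 and 3064 reads in the mutants, against 4257 and 3472 reads in the wild types (log2 difference -0.11, adjusted p = 0.880 by edgeR).

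Six4, which acts beside other sine oculis genes in mouse muscle and held a MEF3 site in 1 of its windows, did not separate the groups (chromosome 12, 74201246 to 74214232, minus strand). It had 93 and 79 reads in the mutants, against 73 and 96 reads in the wild types. The wild types lay on either side of the mutants, at 4.34 and 4.01 CPM in the mutants against 3.25 and 4.83 CPM in the wild types. On the log2 scale the difference was 0.05 ± 0.32 (SE, adjusted p = 0.970 by edgeR), and its sign turned to -0.21 without wild type 1 and to -0.23 with scaling by library totals alone. Six2, the regulator that keeps kidney progenitors undifferentiated, had the fewest reads of Six2, Six4 and Six5 (chromosome 17, 86083608 to 86087587, minus strand). It had 8 and 13 reads in the mutants, against 5 and 9 reads in the wild types, at 0.373 and 0.659 CPM in the mutants and 0.223 and 0.453 CPM in the wild types. These overlapped, the log2 difference was 0.61 ± 0.75 (SE) with an adjusted p of 0.804 by edgeR, and the 95% counting interval of the ratio, 0.748 to 3.28, holds both a fall and a rise. The Six5 share of Six2, Six4 and Six5 reads was 66.6% (95% Clopper-Pearson interval 60.9 to 71.9) and 72.5% (67.3 to 77.2) in the mutants, against 79.7% (75.4 to 83.6) and 73.2% (68.5 to 77.5) in the wild types.

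Dach1, a corepressor that in mouse endothelium takes part in the growth of coronary arteries (chromosome 14, 98186066 to 98568762, minus strand), had 146 and 121 reads in the mutants, against 172 and 217 reads in the wild types. It stood at 6.81 and 6.14 CPM in the mutants, against 7.66 and 10.9 CPM in the wild types. The groups did not overlap, and the wild types were further apart than the mutants. Dach1 averaged 6.48 ± 0.479 CPM in the mutants and 9.29 ± 2.30 CPM in the wild types (SD, n = 2 each), with a log2 fold change of -0.52 ± 0.28 (SE) and an adjusted p of 0.554 by edgeR (0.0334 to 1.0 over the alternatives). Without wild type 2 the log2 fold change was -0.25, and without wild type 1 it was -0.75. In the authors' deposited table, which compares single libraries by an unnamed test, the ratio of Dach1 was 0.786, 0.563, 0.593 and 0.425 for mutant 1 over wild type 1, mutant 1 over wild type 2, mutant 3 over wild type 1 and mutant 3 over wild type 2. Those ratios are scaled by library totals without TMM, a scaling that shifted the median of all rows by -0.28. The fall of Dach1 is therefore larger in them than in the CPM above. The same table gave 0.717 for wild type 1 over wild type 2, with a p of 0.00108, so the wild types also differed from each other there.

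Per kilobase of the longest annotated coding transcript, the order of levels was read within each group. In the mutants Eya3 came first at 4.06 CPM per kilobase, then Six5 at 3.60, Dach1 at 1.24, Six4 at 0.612, Eya1 at 0.441, Eya2 at 0.373, Six2 at 0.244 and Eya4 at 0.161. In the wild types Six5 came first at 4.67 CPM per kilobase, then Eya3 at 4.59, Dach1 at 1.78, Six4 at 0.593, Six2 and Eya1 both at 0.159, Eya2 at 0.0692 and Eya4 at 0.0458. Neighbours in this order whose libraries overlapped were Eya3 and Six5 in both groups. In the mutants they were also Eya1 and Eya2, Eya2 and Six2, and Six2 and Eya4, and in the wild types Six2 and Eya1, and Eya2 and Eya4. The nuclease step lowers abundant transcripts most, so these orders need not be orders of RNA.

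Under all 12 fits with another test, scaling, filter or set of libraries, Eya1, Eya2 and Eya4 had fold changes above 0. Those of Eya3, Six5 and Dach1 were below 0. These are the genes whose groups did not overlap, and all fits reuse the same libraries. Their signs were thus largely fixed beforehand and are no separate support. Size and call varied with single hearts. Without wild type 2, Eya1 (1.84, adjusted p = 0.0253), Eya2 (3.28, adjusted p = 0.0253) and Eya4 (2.62, adjusted p = 0.0499) passed by edgeR, but so did 22.0% of all rows tested then. Without wild type 1, Dach1 passed (adjusted p = 0.0334), along with 12.2% of rows. Without mutant 1 the log2 fold changes of Eya1, Eya2 and Eya4 were 1.16, 2.17 and 2.00, and none passed (0.381% of rows did). Without mutant 3, none of the 8 passed and 0.653% of rows did. Leaving out a heart leaves 1 library in a group, which is then assumed to vary like the other group.

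**Figure D3:**
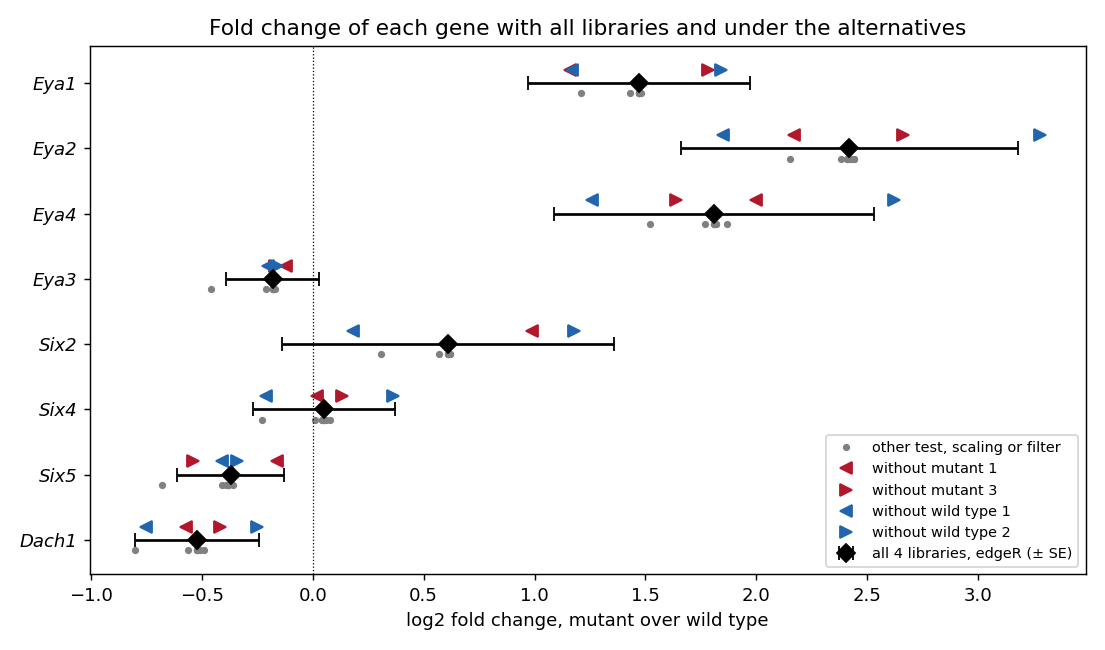
Log2 fold change of each gene, mutant over wild type (horizontal axis), with all 4 libraries (black diamonds with SE), with another test, scaling or filter (grey dots) and without 1 library (triangles). Eya1, Eya2 and Eya4 lie above 0 throughout, with Eya2 between 1.85 and 3.28, and only Six4 has values on both sides of 0.

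Partners and relatives of the network did not pass the test. Of 14 corepressors and cofactors, all tested, 0 passed by edgeR over all rows and 0 by DESeq2. By unadjusted p, Sobp was lower in the mutants and none was higher. Their median log2 fold change was -0.29, with 10 of 14 below 0, against 7991 of 16128 rows below 0 over all rows, and 9 of the 14 lay lower in both mutants than in both wild types (22.4% of all rows did). Sobp, a protein that binds sine oculis factors, averaged 27.9 ± 0.848 CPM in the mutants and 42.8 ± 2.56 CPM in the wild types (SD, n = 2 each; log2 fold change -0.62 ± 0.21 SE, adjusted p = 0.349 by edgeR). Sin3a, a scaffold of histone deacetylase complexes used by Dach1, averaged 13.7 ± 0.571 CPM in the mutants and 18.7 ± 0.361 CPM in the wild types (adjusted p = 0.505 by edgeR). Ski, a relative of Dach1, averaged 57.3 ± 1.31 CPM in the mutants and 71.6 ± 17.8 CPM in the wild types, and its relative Skil 12.5 ± 0.424 CPM in the mutants and 11.2 ± 3.10 CPM in the wild types. These were the 2 tested genes of the 5 in the table listed as further relatives, and neither passed (adjusted p = 0.661 and 0.862 by edgeR). Six3, Six6 and Dach2 had no read in any library, which allows up to 3 reads per library.

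Genes that work upstream of the network in embryonic organs were mostly too low to test. Of 11 in the table, 3 were tested and 0 passed by edgeR or DESeq2, and 0 reached an unadjusted p under 0.05. Wt1, a regulator of kidney and epicardium, averaged 3.23 ± 0.602 CPM in the mutants and 2.02 ± 0.207 CPM in the wild types (adjusted p = 0.533 by edgeR). Sall4 averaged 1.94 ± 0.0922 CPM in the mutants and 2.85 ± 0.189 CPM in the wild types (adjusted p = 0.597), and Sall1 0.598 ± 0.516 CPM in the mutants and 0.976 ± 0.384 CPM in the wild types (adjusted p = 0.754); both are zinc-finger regulators of organ formation. The other 8, among them Pax2, Pax3, Pax7, Pax8 and Tbx1, had 21 and 28 reads in all in the mutants, against 13 and 14 reads in the wild types.

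The skeletal myogenic factors had few reads in every heart. The 5 that the table holds, Myod1, Myog, Myf5, Myf6 and Lbx1, summed to 4 and 5 reads in the mutants, against 4 and 2 reads in the wild types, and none was tested. Myog, which holds the MEF3 site printed above, had 0 and 3 reads in the mutants, against 0 and 2 reads in the wild types. A difference was not detectable at this depth.

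Fast-fibre and glycolytic muscle genes, which sine oculis and Eya proteins switch on in mouse skeletal muscle, had fold changes above 0 for 14 of 16 tested genes. Some were high in mutant 1 alone and others in both mutants. Of the 19 listed genes, 0 passed by edgeR over all rows and 2 by DESeq2 (Myh4 and Myl1, both higher). An unadjusted p under 0.05 was reached by 9 of 16, all higher in the mutants, where 6.49% of all rows were higher by that measure and 1.09% by DESeq2. Tnnt3, among these 9, entered the test only through the mutants, so the filter fixed its direction and the share of all rows is no fair measure for it. The list's median difference was 1.90 on the log2 scale, and 0.18 once mutant 1 was left out. Myh4, the fast IIb myosin heavy chain, whose sequence is close to that of its neighbours, had 951 and 655 reads in the mutants, against 224 and 238 reads in the wild types (log2 difference 1.82 ± 0.25 SE, adjusted p = 0.0638 by edgeR). Myl1, a fast myosin light chain, had 422 and 1212 reads in the mutants, against 163 and 132 reads in the wild types (2.54 ± 0.49, adjusted p = 0.138 by edgeR). Tnnt3, the fast troponin T, had 1516 and 20 reads in the mutants, against 8 and 5 reads in the wild types (6.85 ± 1.75, adjusted p = 0.238 by edgeR), with mutant 1 far above the other libraries. Tnnc2 and Ryr1, left untested by the filter, had 759 and 188 reads in mutant 1 and 3 and 3 reads in mutant 3, against 2 and 0 reads of Tnnc2 and 3 and 2 reads of Ryr1 in the wild types. Eya1 (2.33 and 1.52 CPM) and Eya2 (1.07 and 0.761 CPM) were higher in mutant 1 than in mutant 3, and Eya4 (0.747 and 0.964 CPM) was not. The authors' deposited ratios, scaled by library totals without TMM, were 1.83, 1.68 and 0.925. Casq1, the calcium-binding protein of the muscle calcium store, had 414 and 770 reads in the mutants, against 334 and 190 reads in the wild types. The list thus held genes high in mutant 1 alone and genes high in both mutants, and its part in the Eya values was not tested.

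**Figure D4:**
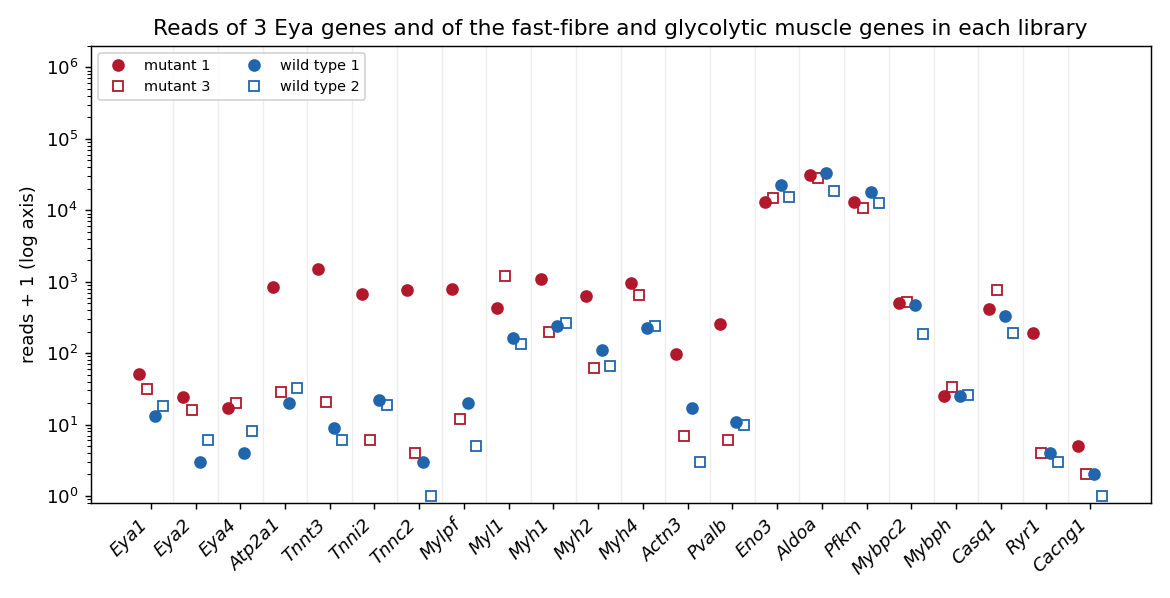
Reads plus 1 (log axis) of Eya1, Eya2, Eya4 and the 19 fast-fibre and glycolytic muscle genes in each mutant and each wild type. Mutant 1 stands far above the other libraries for Tnnt3 (1516 reads), Tnnc2 (759) and Mylpf (798), while Myh4 (951 and 655), Myl1 (422 and 1212), Casq1 (414 and 770) and the Eya genes are higher in both mutants.

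Growth genes named as sine oculis, Eya or Dach targets in other tissues gave no call. Of 11 in the table, 9 were tested and 0 passed by edgeR or DESeq2; 1 was higher and none lower by unadjusted p, with a median log2 fold change of 0.31. Igfbp5, which binds insulin-like growth factors, averaged 237 ± 56.0 CPM in the mutants and 154 ± 7.94 CPM in the wild types (adjusted p = 0.411 by edgeR). Ccnd1, the cyclin that Dach1 represses in cultured cells, averaged 63.6 ± 0.490 CPM in the mutants and 43.8 ± 11.6 CPM in the wild types (0.54 ± 0.24, adjusted p = 0.477 by edgeR), and Jun 61.7 ± 6.61 CPM in the mutants and 75.4 ± 2.02 CPM in the wild types (adjusted p = 0.648).

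Proteins tied to the Eya phosphatase likewise gave 0 calls of 6 tested by edgeR and by DESeq2, with none below an unadjusted p of 0.05 and a median log2 fold change of 0.04. H2afx, the histone variant whose tyrosine mark Eya proteins remove, averaged 7.68 ± 0.0302 CPM in the mutants and 9.97 ± 2.65 CPM in the wild types (adjusted p = 0.660 by edgeR). Ppp2r2a averaged 21.2 ± 2.02 CPM in the mutants and 26.2 ± 2.49 CPM in the wild types (adjusted p = 0.652), and Baz1b, the kinase that sets that tyrosine mark, 34.3 ± 1.59 CPM in the mutants and 30.7 ± 6.86 CPM in the wild types (adjusted p = 0.841).

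Arterial and endothelial genes set beside Dach1 gave 0 calls of 11 tested by edgeR and by DESeq2, none below an unadjusted p of 0.05, with 10 of 11 fold changes above 0 (8137 of 16128 over all rows) and a median log2 fold change of 0.13. Of the 11, 3 lay higher in both mutants than in both wild types and 1 lower, where 22.3% and 22.4% of all rows did. Sox17, an arterial transcription factor, averaged 6.75 ± 2.94 CPM in the mutants and 3.79 ± 0.694 CPM in the wild types (adjusted p = 0.472 by edgeR). The chemokine receptor gene Cxcr7 averaged 61.5 ± 4.51 CPM in the mutants and 45.9 ± 8.40 CPM in the wild types (adjusted p = 0.543), and the venous regulator Nr2f2 17.2 ± 3.62 CPM in the mutants and 12.4 ± 2.50 CPM in the wild types (adjusted p = 0.557). Cxcl12, the ligand linked to Dach1 in mouse coronary endothelium and named here outside the rule, averaged 199 ± 6.96 CPM in the mutants and 189 ± 26.3 CPM in the wild types. PRC2 gave 0 calls of 4 tested by edgeR and by DESeq2, none below an unadjusted p of 0.05, and a median of 0.01; Eed, a core subunit, averaged 15.3 ± 1.13 CPM in the mutants and 13.5 ± 3.74 CPM in the wild types, and Ezh1, the second methyltransferase, 25.9 ± 0.883 CPM in the mutants and 28.2 ± 2.94 CPM in the wild types.

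**Figure D5:**
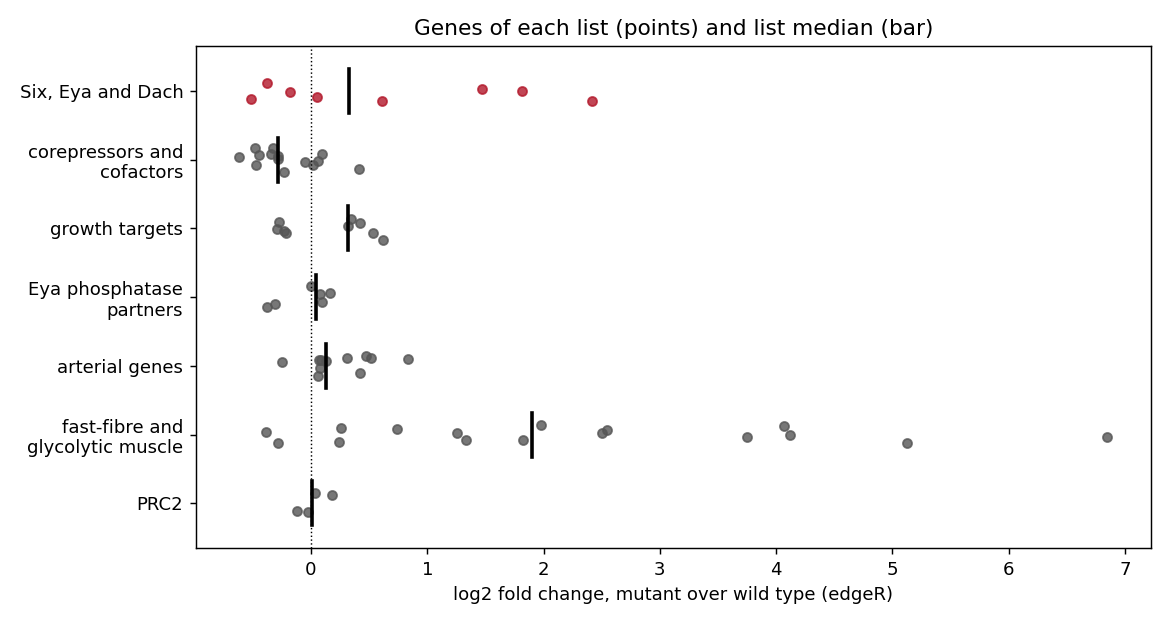
Log2 fold change, mutant over wild type, of each tested gene (points) in the network and in the lists with at least 4 tested genes, with the list median as a bar. The network spans -0.52 (Dach1) to 2.42 (Eya2), and the fast-fibre list reaches 6.85 (Tnnt3). Eya2, Eya4 and Tnnt3 entered the test only through the mutants, so the filter fixed their direction.

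The ventricle samples held the markers of the labelled tissue, and the sums of some marker lists differed with genotype. All 8 cardiomyocyte markers were above 1 CPM in every library, with sums of 47640 and 54410 CPM in the mutants, against 45560 and 41510 CPM in the wild types. Skeletal fibre markers summed to 3172 and 4057 CPM in the mutants, against 2442 and 1562 CPM in the wild types, with 7 and 4 of 10 above 1 CPM in the mutants, against 2 and 3 in the wild types; Acta1 and Ckm, which the heart also expresses, make up most of this, and Myf6 was at 0 throughout. The 7 of these genes that were tested had a median log2 fold change of 4.07, and 0.24 without mutant 1, with 0 called by edgeR. Among them, Tnnt3 entered the test only through the mutants. Atrial markers summed to 3458 and 3090 CPM in the mutants, against 437 and 185 CPM in the wild types. Most of this was Nppa, which rose by 3.52 on the log2 scale (adjusted p = 0.0316 by edgeR). Without Nppa, left out after its values were seen, the sums were 146 and 118 CPM in the mutants, against 61.7 and 11.6 CPM in the wild types. Gja5 of this list was lower in both mutants, and the other 4 tested genes were higher in both. Endothelial markers, which bear on Dach1, summed to 514 and 647 CPM in the mutants and 628 and 562 CPM in the wild types, and all 8 were above 1 CPM in every library. Fibroblast markers summed to 832 and 929 CPM in the mutants and 902 and 742 CPM in the wild types, those of smooth muscle and pericytes to 375 and 425 CPM in the mutants and 368 and 388 CPM in the wild types, and those of macrophages to 175 and 150 CPM in the mutants and 166 and 123 CPM in the wild types. Markers of Schwann cells and neurons summed to 26.3 and 20.5 CPM in the mutants and 15.6 and 12.3 CPM in the wild types, of adipocytes to 4.39 and 4.11 CPM in the mutants and 2.67 and 0.201 CPM in the wild types, and of epicardium to 9.99 and 10.6 CPM in the mutants and 12.1 and 15.6 CPM in the wild types. The part of skeletal, atrial or nerve-related cells in the Eya values was not tested.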

How the data were processed

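RNA was sequenced from 4 right ventricles, 2 of Ezh2-deficient and 2 of wild-type mice, with groups read from the titles. TopHat 1.2.0, Cufflinks and build mm9 are named in the submitters' processing notes; for the counting rule, strand and annotation, nothing is given in the sources used here. Per the file headers the authors deposited a read count per gene row and library, a normalised value that equals CPM over all reads of the table, and, for each pair of libraries, a ratio and a p-value. Counts were the input for all tests; the ratio and p-value are quoted only as the authors'. Table starts are counted from 0 (13 of 13 mitochondrial genes against an annotation) and are printed counted from 1.

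Counts were tested with edgeR 4.0.16 in R 4.3.3 (quasi-likelihood, two-sided, filterByExpr with the group, TMM, Benjamini-Hochberg over 16128 rows, adjusted p under 0.05); SE is the fold change over the root of F. The procedure was checked on simulated data. The rows changed there had more reads on average than Six2, Eya1, Eya2 and Eya4 have here. The check therefore does not cover genes as low as these. Alternatives were DESeq2 1.42.0, limma-voom (limma 3.58.1), other scalings and filters, leaving out rows of X, Y and M and rows above 1% of a library (1054 rows), a threshold of 0.1 and leaving out each library. Intervals are 95%, exact, from scipy 1.17.1, and cover counting error. Transcript lengths came from GENCODE M21 and promoter windows from RefSeq, both on GRCm38, used for lengths and letters only.

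The genes and lists were chosen with earlier results of these data known: 9 lists (87 of 90 genes in the table) and 10 marker lists. The naming rule took all 8 genes, Ezh2, per list the called members or otherwise the 3 of smallest p, the nearest row to each gene, and for genes at 1 CPM or more the rows of closest profile. Other genes printed with reads were chosen after their values were seen. Not every gene of these families and lists is reported here.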

Additional observations from a re-analysis of the deposited data

How the results depend on the processing

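Of 94 values of the 8 genes under another setting, 88 kept their direction and their side of the threshold, 4 became calls and 2 turned in sign. The 2 that turned were of Six4, to -0.23 with library totals alone and to -0.21 without wild type 1 (-0.21 to 0.36 over the left-out libraries). The calls arose when 1 wild type was left out: over the left-out libraries the log2 fold change ran from 1.16 to 1.84 for Eya1, 1.85 to 3.28 for Eya2, 1.26 to 2.62 for Eya4 and -0.75 to -0.25 for Dach1, and the number of the 8 genes called from 0 to 3. Over all rows, 21 were called (17 higher, 4 lower), against 227 by DESeq2, 156 with library totals alone (76 higher, 80 lower), 317 with no filter, 69 at a threshold of 0.1, 3 without X, Y, M and abundant rows, and 63 to 3675 over the left-out libraries. Among the listed genes outside the family, 0 were called, against 2 by DESeq2, 7 with library totals alone, 11 with no filter, 1 at a threshold of 0.1 and 3 to 20 over the left-out libraries. The cause of these shifts was not tested. Six2 was too low to be tested under the stricter filter and without mutant 3. No paired analysis was possible because the groups share only replicate number 1. Depth limits Six2, Eya2 and Eya4 most, at 2 to 23 reads per library.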

Other observations

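The tested rows nearest to the Eya genes and Six4 on mm9 did not pass the test. Prkcbp1, 12522 bases beyond Eya2, had 764 and 790 reads in the mutants, against 831 and 848 reads in the wild types (log2 difference -0.07, adjusted p = 0.926 by edgeR). Msc, 443148 bases from Eya1, had 40 and 21 reads in the mutants, against 38 and 30 reads in the wild types (-0.12, adjusted p = 0.943). Xkr8, 140 bases beyond Eya3, had 29 and 40 reads in the mutants, against 33 and 50 reads in the wild types (-0.23, adjusted p = 0.882), and Mnat1, 10471 bases from Six4, had 251 and 233 reads in the mutants, against 193 and 194 reads in the wild types (0.36, adjusted p = 0.621). The row nearest to Dach1, 865006 bases away, was 2410129H14Rik, with 321 and 329 reads in the mutants, against 222 and 441 reads in the wild types (-0.02, adjusted p = 0.993). Those nearest to Eya4 and Six2 had no reads.

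The profile closest to that of Six5 over the 4 libraries was that of Fhl2, a LIM-domain gene of heart muscle, at 811 and 1047 CPM in the mutants and 1150 and 1212 CPM in the wild types (root mean square distance 0.00706 on the log2 scale with a pseudocount of 0.5 CPM), followed by Zfp422. For Eya3 it was Narf, then Nol1, with Narf at 69.9 and 72.4 CPM in the mutants and 79.2 and 81.3 CPM in the wild types, and for Dach1 it was Pigg, then Zfp128, with Pigg at 6.25 and 5.48 CPM in the mutants and 6.95 and 9.66 CPM in the wild types. For Six4 it was Suv420h1, then Wdr37, with Suv420h1 at 14.0 and 13.1 CPM in the mutants and 10.7 and 15.6 CPM in the wild types. With 4 libraries and 11650 rows to choose from, close profiles are common, and nothing on function or control follows from them.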
